A study of Mus musculus with 9 samples.

Results

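The 3 wild-type libraries of gastrocnemius muscle were taken as the members, by the genotype given in their titles, out of 9 libraries in the series. Gastrocnemius is a calf muscle of the mouse. The animals were 3 months old, on a mixed 129Sve/C57BL/6 background, and are labelled WT for Bub1b. The other 6 libraries, from carriers of altered Bub1b alleles, were not used here, so that no genotype was compared and no test was run. RNA of the whole tissue was sequenced, so fibres, nerve, vessels, fat and connective tissue contribute together. The labels do not say that the 3 libraries came from separate animals, and the spread given below (mean ± SD, n = 3 throughout) may be partly technical.

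A skeletal muscle fibre shortens when myosin heavy chains of its thick filaments pull on actin thin filaments. Calcium released from the sarcoplasmic reticulum through the ryanodine receptor starts this by binding troponin C, and a calcium pump ends it. Many of the proteins involved exist in a fast and a slow form encoded by separate genes, and the heavy chain genes Myh7, Myh2, Myh1 and Myh4 mark fibre types I, IIa, IIx and IIb. Mouse gastrocnemius is known as a mainly fast muscle with a slow, oxidative portion that differs from region to region.

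Library totals were 33977252 counts in WT 1, 19768149 in WT 2 and 23342241 in WT 3. Levels are given in CPM, counts scaled to a library total of 1000000, and 3 counts amount to 0.0883 CPM in WT 1, 0.152 in WT 2 and 0.129 in WT 3. Bub1b, the gene that the series is about, had 21, 11 and 16 counts in WT 1, WT 2 and WT 3, or 0.6200 ± 0.0645 CPM. Xist had 0 counts in each library, while the Y-linked gene Ddx3y had 976, 378 and 421. The counts of each pair of libraries differed by more than counting noise, with a chi-square per degree of freedom of 23.4 for WT 1 and WT 2, 38.2 for WT 2 and WT 3, and 69.4 for WT 1 and WT 3.

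WT 3 stood apart from the other two by gene length. Among genes of at least 10 CPM, the median log2 of a gene's CPM over its mean of the 3 libraries was 0.19 in WT 3 for the 135 genes with under 1 kb of exon sequence. It was -0.42 in WT 3 for the 156 genes of 16 kb or more, of which 148 were lowest in that library. In WT 1 the same medians ran the other way, from -0.13 to 0.23, and WT 2 lay between, from -0.09 to 0.09. Ttn, whose product titin is the giant spring protein that runs from the Z-disc to the M-band, had 5879.7 CPM in WT 1, 5221 in WT 2 and 2299 in WT 3. Neb, which encodes the thin filament protein nebulin, had 2972 CPM in WT 1, 2633 in WT 2 and 1349.7 in WT 3. Both giant genes were lowest in WT 3. Of all 6606 genes of at least 10 CPM with a known length, 3483 (52.7%) were lowest in WT 3. RNA quality was not among the labels used here, and its part in the pattern was not tested.

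**Figure D1:**
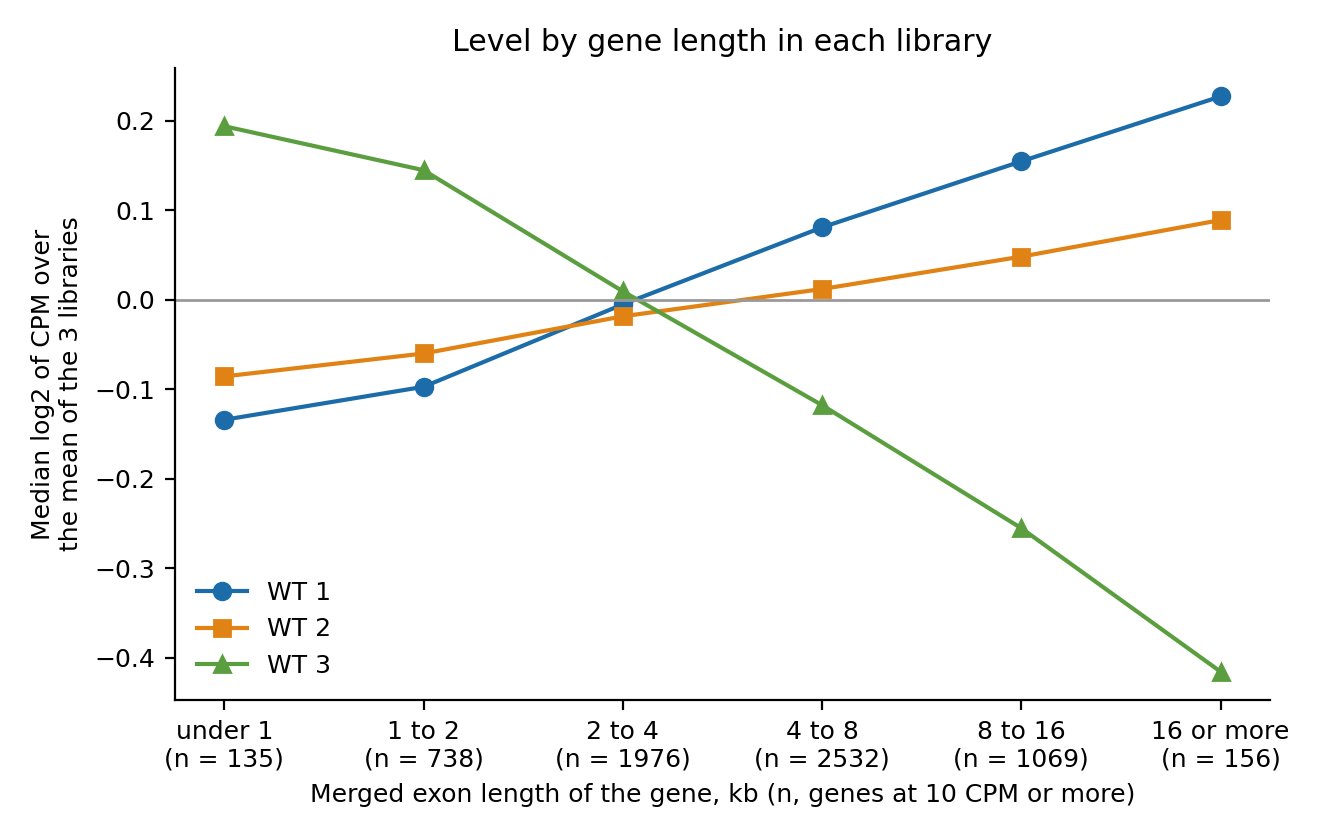
Median log2 of CPM over the mean of the 3 libraries (y axis) for genes of at least 10 CPM in 6 bins of merged exon length in kb (x axis, number of genes in brackets), 1 line per library. WT 3 goes from 0.19 in the shortest bin to -0.42 in the longest, and WT 1 goes from -0.13 to 0.23.

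The counts were concentrated on few genes. Of 24062 gene symbols, 7198 had 0 counts in all 3 libraries, 14570 had at least 1 count in each and 10912 reached 1 CPM in each. A mean of at least 10 CPM was found for 6624 symbols, at least 100 CPM for 1148 and at least 1000 CPM for 85. Those 85 genes held 53.4% of the counts, and the 15 highest of them held 36.6%. The 10 highest genes of each library held 30.3% of its counts in WT 1, 30.1% in WT 2 and 32.1% in WT 3 (30.8 ± 1.11%), and the 100 highest held 54.9 ± 0.889%. The smallest number of genes that together reached 50% of the counts was 61 in WT 1, 61 in WT 2 and 50 in WT 3, whereas 90% took 2959, 2896 and 2601 genes. WT 3 was thus the most concentrated library by each of these measures.

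The 10 highest genes were the same in all 3 libraries, and all are known for contraction, calcium handling or rapid energy supply. First by mean CPM was Myh4 (chr11:67238029-67260446, plus strand), the type IIb heavy chain, with 61318 CPM in WT 1, 51708 in WT 2 and 39178 in WT 3. Second was Acta1 (chr8:123891769-123894751, minus strand), the skeletal alpha-actin of the thin filament, with 45378 CPM in WT 1, 48888 in WT 2 and 52417 in WT 3. The 2 genes exchanged places: Myh4 was first in WT 1 and WT 2, Acta1 in WT 3. Atp2a1 (chr7:126445858-126463108), the fast-fibre calcium pump SERCA1, had 39201 CPM in WT 1, 40323 in WT 2 and 37956 in WT 3, a range far narrower than that of Myh4.

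Next by CPM came Tnnt3 with 33624 ± 3015 CPM and Tpm1 with 31378 ± 3065 CPM, which encode fast troponin T and alpha-tropomyosin of the thin filament. Aldoa, the muscle form of the glycolytic enzyme aldolase, had 27629 ± 3545 CPM, and Ckm, the cytosolic muscle creatine kinase that regenerates ATP from phosphocreatine, had 22748 ± 1071 CPM. The remaining 3 of the 10 were Tnnc2 (fast troponin C, 20296 ± 3153 CPM), Pvalb (parvalbumin, a calcium buffer of fast fibres, 17943 ± 2356 CPM) and Tnni2 (fast troponin I, 15873 ± 2924 CPM). Tnnt3, Tpm1, Aldoa, Ckm, Tnnc2, Pvalb and Tnni2 were all highest in WT 3.

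Ranks 11 to 30 added more of the same systems. Contractile and Z-disc genes among them were Myl1 and Mylpf (essential and regulatory light chains), Actn3 (alpha-actinin-3, a Z-disc protein of fast fibres), Tpm2, Mybpc2 (fast myosin-binding protein C), Des (desmin, the muscle intermediate filament), Tcap (telethonin, which caps titin), Ttn and Myoz1. Glycolysis and glycogen use gave Gapdh, Pygm (muscle glycogen phosphorylase), Eno3, Pkm, Pfkm and Ldha, from 11123 ± 1107 CPM for Gapdh to 4812 ± 353 CPM for Ldha. Casq1 and Ryr1 store and release calcium, and Slc25a4 and Atp5b exchange and make ATP in mitochondria. One of the 30 was not a messenger RNA gene: Rn45s, the precursor of ribosomal RNA, had 3116 CPM in WT 1, 4564 in WT 2 and 3317 in WT 3. It was highest in WT 2.

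The libraries agreed on most of this order. The 30 highest genes of each library shared 26 genes, out of 34 found in any of the 3 lists, and the 100 highest shared 89 out of 112. Tcap had the highest ratio of highest to lowest library of the 30 after Ttn, with 2998, 5549 and 5541 CPM in WT 1, WT 2 and WT 3. Tpm2 had 6147, 8503 and 8130.2 CPM. Both were lowest in WT 1.

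**Figure D2:**
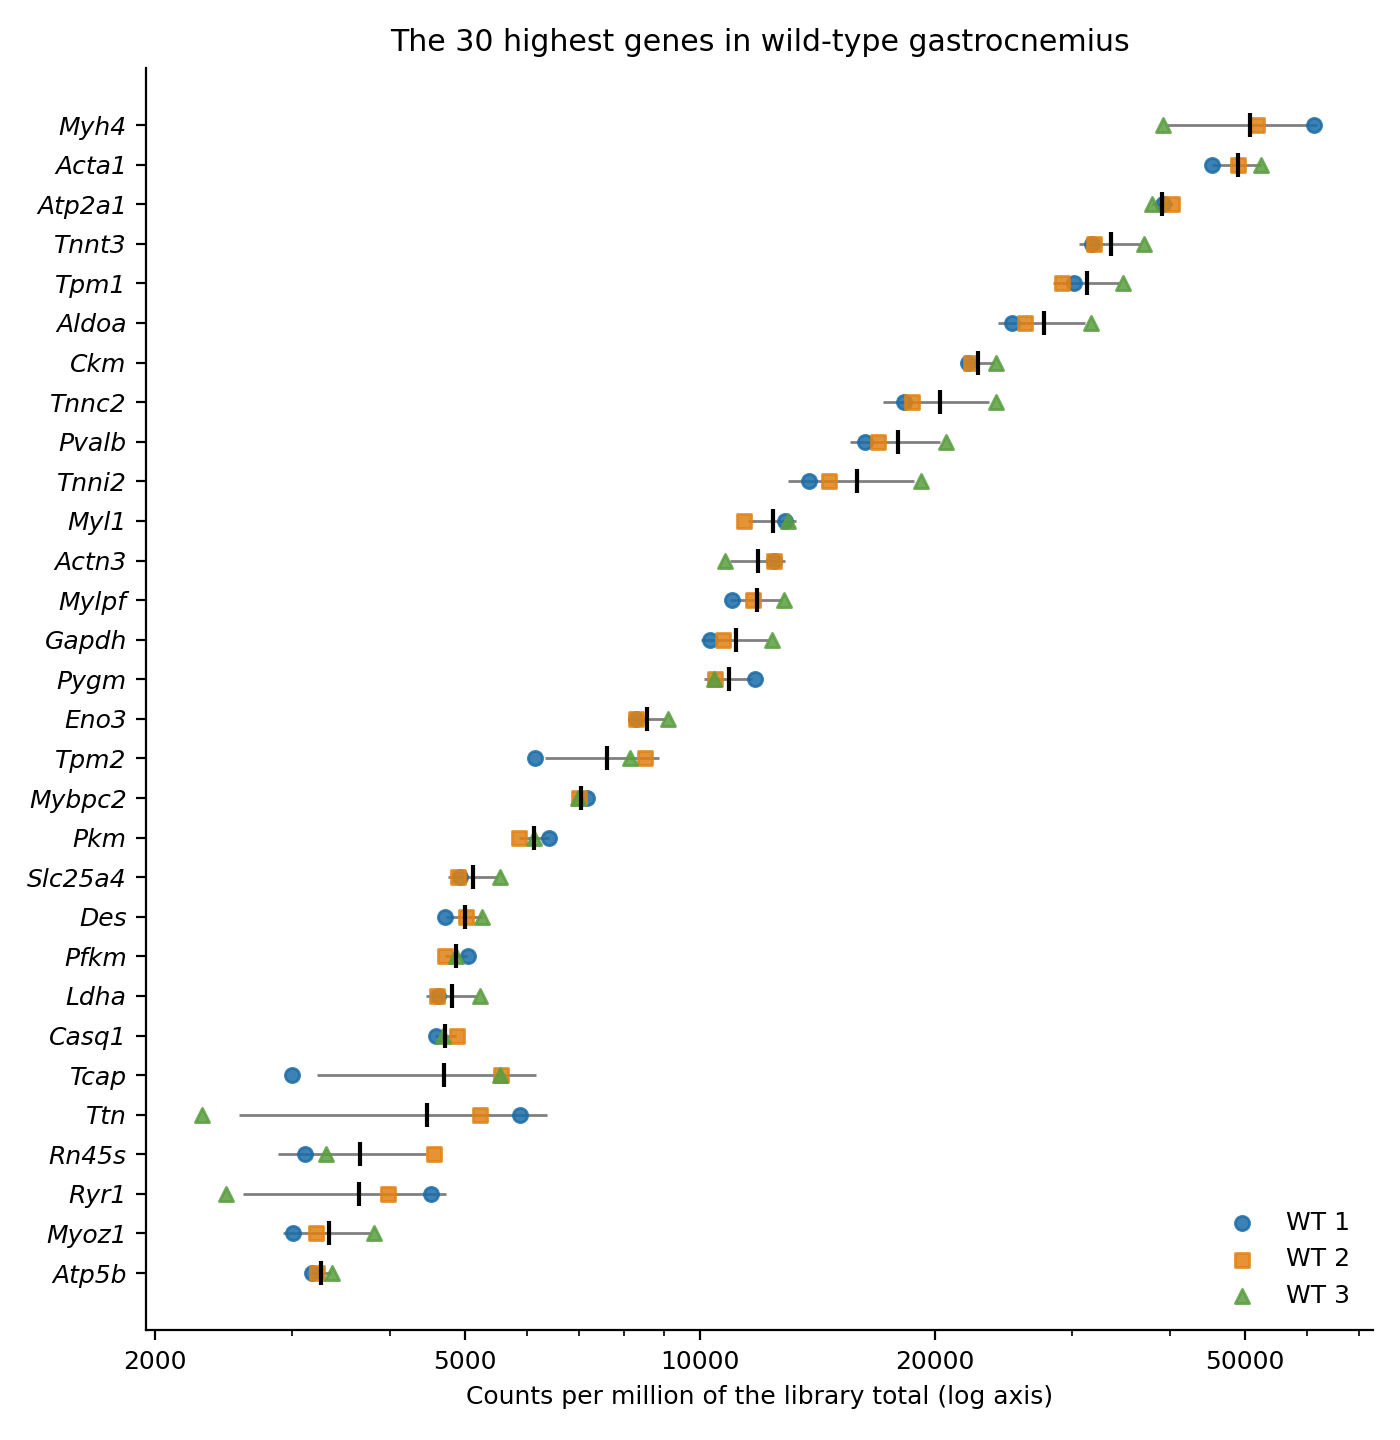
CPM (log axis) of the 30 genes with the highest mean CPM, 1 symbol per library, with the mean as a black tick and 1 SD to each side as a grey line. Most genes differ little between libraries; Ttn and Ryr1 are lowest in WT 3 and Tcap is lowest in WT 1.

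A long transcript gives more reads per molecule than a short one, so an order by CPM, here and for the leading genes of each list, is an order of reads that favours long genes. Transcript levels of different genes were compared per length, as counts per kilobase of merged exon sequence scaled to the same total in each library (TPM). On this scale Acta1 came first with 82216 ± 2005 TPM, followed by Tnnc2 with 65328 ± 6435 TPM, Tnnt3 with 54825 ± 1980 TPM and Pvalb with 44419 ± 3308 TPM. Atp2a1 (29186 ± 2277 TPM), Mylpf (28766 ± 708 TPM), Tnni2 (27274 ± 3443 TPM) and Aldoa (24462 ± 1748 TPM) came next. Myh4 was the ninth, with 27578 TPM in WT 1, 22601 in WT 2 and 15843 in WT 3, and Ckm the tenth, with 20187 ± 244 TPM. The levels of Atp2a1, Mylpf and Tnni2 lay within 1 SD of each other, and the order of those 3 does not exceed their spread. By mean TPM, actin and the 3 fast troponins were among the 7 highest genes, but the levels of Tnni2 and Myh4 overlapped, and in WT 1 Myh4 (27578 TPM) was above Tnni2 (24898 TPM).

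The 2 scales shared 9 of their 10 highest genes and 25 of their 30 highest. With merged exon length, Mylpf entered the 10 highest and Tpm1 left them. With the longest transcript instead, Tpm1 (21560 TPM) and Myl1 (22822 TPM) stood above Myh4 (16940 TPM) and Ckm (16501 TPM). Tnnt3 (61881 TPM) then stood above Tnnc2 (57432.5 TPM). Aldoa (35365.5 TPM) and Tnni2 (35090.5 TPM) stood above Mylpf (30685 TPM) and Atp2a1 (22459 TPM). Acta1 (67194 TPM) stayed above all of these. The places of most of the highest genes in the order by TPM thus rest on the length used. Ttn moved from rank 26 by CPM to rank 892 by TPM, with 101 ± 46.5 TPM, and Ryr1 from 28 to 217. Tcap, a short gene, moved up from 25 to 12, with 12722 ± 3655 TPM. The median exon length of the 30 highest genes was 2911 bases by CPM and 2013 by TPM, against 4529 for genes with a length at a mean of 1 CPM or more. The 10 highest genes held 39.9 ± 1.02% of the TPM total, and 19 to 22 genes reached 50% of it.

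Some of these values carry a limit from the annotation. The kit does not mark strand, and 74.0% of the exon sequence of Tnnc2 is overlapped by exons of Ube2c on the other strand. For Atp2a1 the overlap is 21.9%, with Rabep2. Reads of the gene and of its partner cannot be told apart there. Merged exon length also depends on every annotated transcript: that of Tpm1 is 6485 bases while its longest transcript has 2890 bases, so that the TPM of Tpm1 is the lower for it.

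Grouped by function, 548 genes in 11 classes held 59.1 ± 1.48% of all counts. The contractile apparatus and Z-disc, with 67 genes, took 29.8 ± 0.173%, and all 67 reached 1 CPM in each library. Glycolysis and glycogen use (37 genes) took 9.15 ± 0.456% and calcium handling (26 genes in the table) took 7.66 ± 0.0971%. Atp2a1 alone was 51.1% of the calcium-handling sum. Contraction, its calcium control and its glycolytic fuel thus made up most of the reads that could be placed in a class.

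The classes for oxidative energy were smaller. The 94 nuclear genes of oxidative phosphorylation held 3.55 ± 0.425%, led by the ATP synthase subunit genes Atp5b (3264 ± 102 CPM) and Atp5a1 (2589 ± 38.3 CPM). Genes of fatty acid use and the citrate cycle (44) held 1.54 ± 0.0352%, and among them the citrate cycle genes Mdh2, a malate dehydrogenase, and Ogdh, of the oxoglutarate dehydrogenase complex, had 1062 ± 93.6 CPM and 1014 ± 108 CPM. High-energy phosphate genes (15) held 2.95 ± 0.112%, of which Ckm was 77.2%. Mb, which encodes the oxygen store myoglobin, had 2005 CPM in WT 1, 2283 in WT 2 and 2727 in WT 3.

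Genes of protein synthesis and turnover held similarly small shares. The 83 genes of the cytosolic ribosome held 2.29 ± 0.213%, with Rps2 (951 ± 59.5 CPM) and Rplp0 (903 ± 94.01 CPM) at the head. Translation factors (64) held 1.22 ± 0.0638%, led by Eef1a2 and Eef2 at 2303 ± 181 CPM and 1927 ± 115 CPM. The proteasome and ubiquitin list (44) held 0.582 ± 0.05504%, with Ubb, Psmd2 and the muscle ubiquitin ligase gene Fbxo32 all between 337 and 340.4 CPM on average. Collagen and matrix genes (70) held 0.236 ± 0.03903%. The oxidative phosphorylation and ribosome classes had their highest sums in WT 3. Of the 70 matrix genes, 1 had 0 counts and 57 were lowest in WT 3. Of all genes of at least 10 CPM, 52.7% were lowest in WT 3. By exon length this was 36.7% at 2 to 4 kb, 63.7% at 4 to 8 kb and 84.3% at 8 to 16 kb. The median matrix gene had 6.77 CPM, below the 10 CPM that these shares require. The part of gene length in the matrix count was not tested.

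Fibre composition was first read from the 4 adult heavy chain genes. Of their sum per length, Myh4 made up 93.5% in WT 1, 90.8% in WT 2 and 93.6% in WT 3 (92.6 ± 1.61%). The type IIx gene Myh1 followed with 4.41 ± 0.513% and the type IIa gene Myh2 with 2.54 ± 0.758%. Type I Myh7 made up 0.146% in WT 1, 0.826% in WT 2 and 0.305% in WT 3. The mean Myh7 share was 0.426%, and 0.225% without WT 2. In every library the order was Myh4, Myh1, Myh2 and Myh7, and the Myh7 share was the one that varied most in relative terms. Myh1 exceeded Myh2 in each library, by more than their SDs.

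These shares describe RNA, and more fibres of a type cannot be told apart from more RNA per fibre. The other sarcomeric heavy chain genes were far lower than Myh4. Myh3 (embryonic) had 2.997 ± 1.99 CPM, Myh8 (perinatal) 2.06 ± 0.569 CPM, Myh13 (extraocular) 2.32 ± 0.8002 CPM, Myh6 (cardiac alpha) 13.6 ± 9.92 CPM and Myh7b 4.83 ± 3.05 CPM. Myh3, Myh2, Myh1, Myh4, Myh8 and Myh13 stand in this order on the plus strand of chromosome 11, with gaps of 68.7, 2.53, 13.5, 16.7 and 13.0 kb. Within this stretch mean levels went from 1.299 ± 0.879 TPM for Myh3 to 22007 ± 5890.2 TPM for Myh4 and back to 0.458 ± 0.144 TPM for Myh8.

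The 3 adult fast heavy chains are close relatives, which matters for counting reads. Of the stretches of 50 bases in the coding sequence of Myh1, 20.5% also occur in that of Myh2 and 10.99% in that of Myh4, and 10.4% of those of Myh2 occur in Myh4. Between Myh4 and Myh7 the figure was 0.121%. How the counting treated reads that fit more than 1 gene is not given in the sources used here, so the smaller Myh1 and Myh2 shares are the more uncertain ones. The longest stretch common to the 3 genes was 140 bases, and it is shown inside 180 bases of coding sequence (GENCODE M21 on GRCm38, plus strand). It lies in exons 15 and 16 of Myh2 (chr11:67180887-67181155, intron included) and of Myh1 (chr11:67207532-67208973), and in exons 13 and 14 of Myh4 (chr11:67246483-67248566). Capitals mark the bases at which Myh2 or Myh1 differs from Myh4, and in Myh4 every base at which either does.
Myh2: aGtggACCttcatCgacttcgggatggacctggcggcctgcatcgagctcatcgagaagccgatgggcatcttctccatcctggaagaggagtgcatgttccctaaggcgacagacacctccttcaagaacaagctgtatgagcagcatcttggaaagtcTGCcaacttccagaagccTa
Myh1: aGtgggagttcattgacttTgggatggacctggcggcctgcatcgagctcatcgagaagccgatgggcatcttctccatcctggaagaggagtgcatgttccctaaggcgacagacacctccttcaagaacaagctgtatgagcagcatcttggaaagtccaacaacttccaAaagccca
Myh4: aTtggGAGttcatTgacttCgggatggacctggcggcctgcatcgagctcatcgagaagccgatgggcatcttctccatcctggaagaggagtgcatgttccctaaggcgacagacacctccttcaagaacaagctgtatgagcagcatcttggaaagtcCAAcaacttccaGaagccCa
Myh2 differed from Myh4 at 9 of these 180 bases and Myh1 at 3, and a read that falls within the 140 common bases cannot be placed by its letters.

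The starts of the same 3 genes also share sequence, although their levels were 611 ± 253 TPM for Myh2, 1055 ± 323 TPM for Myh1 and 22007 ± 5890.2 TPM for Myh4. The 250 bases before each RefSeq start (GRCm38.p6, plus strand) are printed because the genes stand side by side and differ so much in level. They lie at chr11:67170777-67171026 for Myh2, chr11:67199852-67200101 for Myh1 and chr11:67237562-67237811 for Myh4, and capitals mark the longest block common to all 3, of 20 bases.
Myh2: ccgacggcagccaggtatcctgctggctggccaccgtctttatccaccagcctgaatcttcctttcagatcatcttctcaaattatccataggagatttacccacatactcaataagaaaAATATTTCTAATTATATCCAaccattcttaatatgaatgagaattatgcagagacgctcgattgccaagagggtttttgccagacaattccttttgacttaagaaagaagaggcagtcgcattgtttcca
Myh1: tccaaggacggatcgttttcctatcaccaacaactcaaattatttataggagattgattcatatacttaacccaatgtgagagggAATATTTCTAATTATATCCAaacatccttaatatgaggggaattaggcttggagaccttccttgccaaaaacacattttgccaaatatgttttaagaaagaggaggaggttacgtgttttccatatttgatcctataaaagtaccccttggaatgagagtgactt
Myh4: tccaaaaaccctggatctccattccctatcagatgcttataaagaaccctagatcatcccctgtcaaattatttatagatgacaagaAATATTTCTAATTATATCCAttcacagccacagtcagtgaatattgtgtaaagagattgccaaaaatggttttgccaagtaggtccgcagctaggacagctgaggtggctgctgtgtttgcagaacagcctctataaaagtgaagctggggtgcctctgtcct
The block begins 130 bases before the start of Myh2, 165 before that of Myh1 and 163 before that of Myh4. Among 32851 promoter windows of the mouse in RefSeq it was found in 3, those of these 3 genes. On the strand shown, the letters TATAAA begin 32 bases before the start of Myh1, and 31 and 213 before that of Myh4. The 250 bases of Myh2 do not hold these letters on either strand. In its window, which runs to 50 bases after the start, they begin 11 bases after it. On the other strand they occur once each in the bases shown for Myh1 and Myh4. The part of the block, or of the bases that differ, in the levels of the 3 genes was not tested.

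Across the 100 genes of highest TPM, promoter windows (250 bases before to 50 after the start) were compared with all windows for motifs on both strands, where matches of different motifs may overlap. The 71 genes found in the RefSeq table had 96 windows. TATAAA was present in 12.5% of them and in 13.6% of all windows. CANNTG, the E-box bound by myogenic regulatory factors, was present in 79.2% against 72.3%. A loose form of the MEF2 site (CTA and TAG with any 4 bases between) was present in 3.13% against 3.69%. The CArG box bound by serum response factor was present in 3.13% against 1.63%. The last 2 rest on 3 windows each.

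The other contractile proteins were likewise almost entirely of the fast form. Tnni1 made up 0.129% in WT 1, 0.555% in WT 2 and 0.3701% in WT 3 of the Tnni1 and Tnni2 sum per length (0.351 ± 0.213%). Slow troponin T, Tnnt1, made up 0.184% in WT 1, 0.846% in WT 2 and 0.544% in WT 3 against Tnnt3. Troponin C of slow and cardiac muscle, Tnnc1, made up 0.224% in WT 1, 1.003% in WT 2 and 0.658% in WT 3 against Tnnc2. In all 3 subunits of troponin the slow form was a small minority, lowest in WT 1 and highest in WT 2.

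The slow share was larger for some other proteins. The slow light chain genes Myl3 and Myl2 made up 2.67 ± 1.199% and 1.22 ± 0.553% against Myl1 and Mylpf. Myoz2, a slow-fibre calsarcin of the Z-disc, made up 2.09 ± 0.522% against Myoz1, and Tpm3, slow tropomyosin, 0.8799 ± 0.562% against Tpm1. Atp2a2, the slow and cardiac calcium pump SERCA2, made up 0.384 ± 0.215% against Atp2a1, and Casq2 0.477 ± 0.109% against Casq1. Mybpc1, the slow myosin-binding protein C, had the highest share of the 12 pairs, 10.7 ± 2.201%, followed by the heart-type lactate dehydrogenase gene Ldhb with 9.53 ± 1.003%. Ldhb and Mybpc1 are also known from fast fibres, so that they mark slow fibres less strictly.

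WT 2 had the highest slow share in all 12 pairs, and WT 1 the lowest in 11 of 12, the exception being Mybpc1. The 12 shares are not independent, since they come from the same 3 libraries. The ratio of highest to lowest share ran from 1.23 for Ldhb to 5.66 for Myh7. As absolute levels, Myh7 had 137 CPM in WT 1, 674 in WT 2 and 183 in WT 3. Tnnt1 had 81.6 CPM in WT 1, 380.3 in WT 2 and 283 in WT 3. Myl2, the slow and cardiac regulatory light chain, had 129 CPM in WT 1, 380.3 in WT 2 and 304 in WT 3. All 10 genes of the slow fibre list were highest in WT 2, against 4 of the 14 genes of the fast fibre list. The share of all genes highest in WT 2 was not counted. The slow fibre sum was 985 CPM in WT 1, 3372 in WT 2 and 2164 in WT 3. The 14 genes of the fast fibre list summed to 236221 CPM in WT 1, 230215 in WT 2 and 232813 in WT 3, a range of 1.03-fold, and held 23.3 ± 0.301% of all counts.

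**Figure D3:**
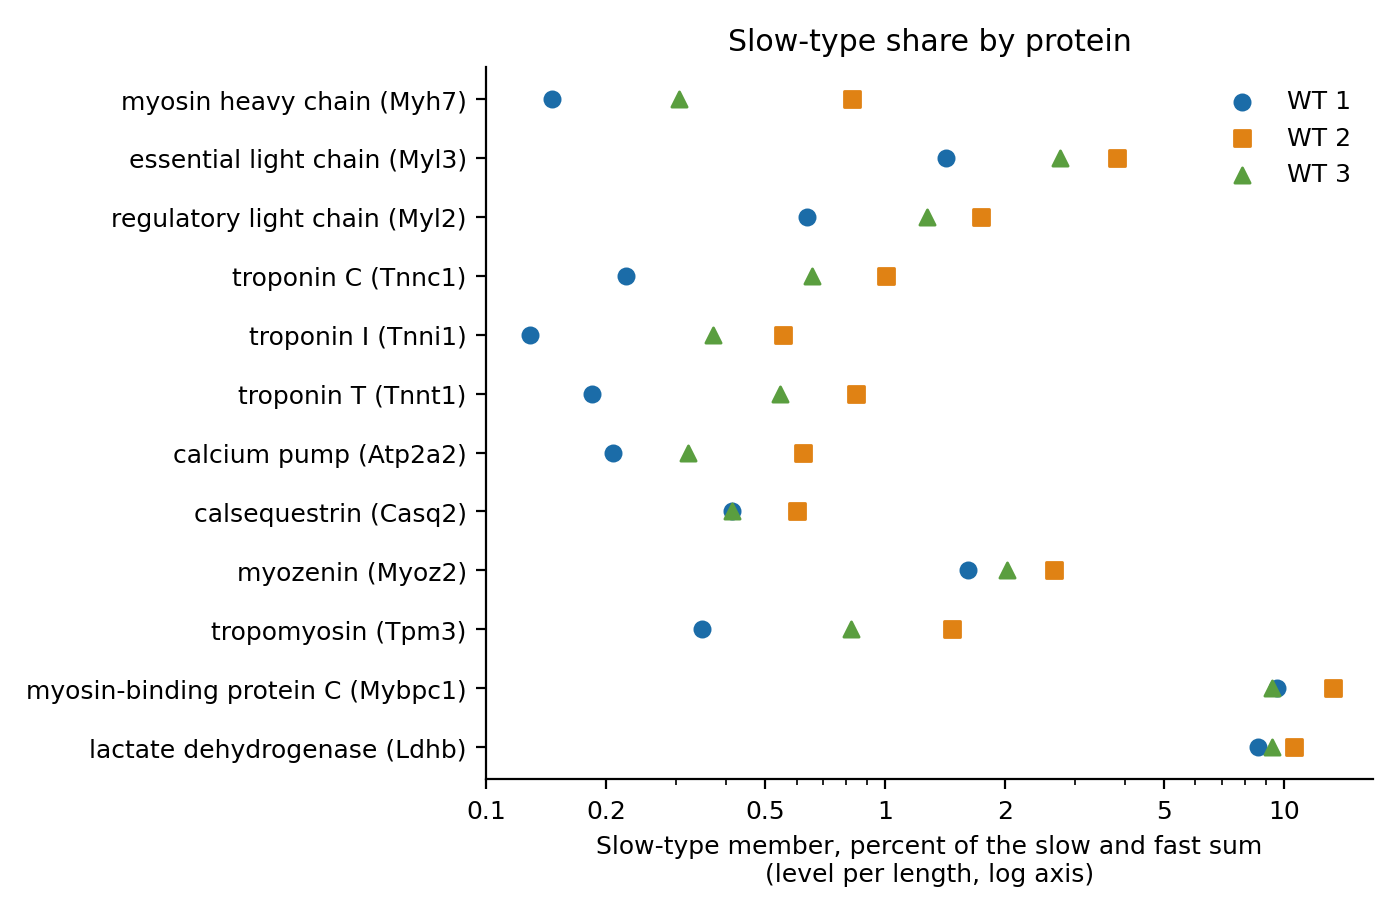
Slow-type gene as percent of the slow and fast sum per length (log axis) for 12 pairs, 1 symbol per library, with the slow gene in brackets. WT 2 is highest in all 12 pairs, and Myh7 ranges from 0.146% in WT 1 to 0.826% in WT 2.

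Choice among related genes was described for 59 families with 180 listed members, of which 179 were in the table, 148 averaged 1 CPM or more and 7 had 0 counts. Counts per gene carry no splice forms, so that only the choice between genes is described. One member held at least 90% of the family's TPM in 39 families and at least 99% in 23. It held 50 to 90% in 16 families and under 50% in 4. The dominant gene was the same in all 3 libraries in 56 of the 59.

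Families of the sarcomere mostly rested on a single gene. Acta1 held 99.4 ± 0.0517% of sarcomeric actin, with the cardiac actin gene Actc1 at 0.583 ± 0.0517%. Actn3 held 96.1 ± 0.356% of sarcomeric alpha-actinin against 3.94 ± 0.356% for Actn2, which slow fibres use. Myoz1 held 93.2 ± 0.854% of the myozenins, and Myoz3, another fast calsarcin gene, 4.78 ± 0.872%. Filamin C, the muscle filamin of the Z-disc encoded by Flnc, held 87.01 ± 0.455%, with 11.2 ± 0.411% for the general filamin Flna.

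Tropomyosin and myomesin were shared. Tpm1 held 64.6 ± 4.35% and Tpm2, beta-tropomyosin, 34.7 ± 4.03%, with 31.1% in WT 1, 39.05% in WT 2 and 33.98% in WT 3 for Tpm2. With the longest transcript in place of merged exons Tpm1 held 75.1%. The M-band genes Myom2 and Myom1 held 56.6 ± 3.65% and 41.5 ± 3.38%, and Myom3 1.895 ± 0.693%. Myom2 was above Myom1 in each library.

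Calcium handling used the skeletal muscle genes nearly alone. Ryr1, the release channel, held 99.96 ± 0.0144% of the ryanodine receptors, and Cacna1s, the voltage sensor of the transverse tubule, 99.95 ± 0.0163% of the L-type channels. Atp2a1 held 99.60 ± 0.2201% of the calcium pumps and Casq1 99.52 ± 0.109% of the calsequestrins. Junctophilins, which tie the reticulum to the tubules, were split between Jph2 with 83.8 ± 0.559% and Jph1 with 16.1 ± 0.563%. The pump inhibitors sarcolipin and phospholamban were scarce: Sln had 0.854 CPM in WT 1, 5.06 in WT 2 and 3.56 in WT 3, and Pln had 1.53 CPM in WT 1, 1.57 in WT 2 and 1.499 in WT 3. Their shares of each other are therefore imprecise, with Sln at 53.9% in WT 1, 87.1% in WT 2 and 83.2% in WT 3.

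In glycolysis and glycogen use the muscle gene was also dominant. Aldoa held 99.998 ± 0.000483% of the aldolases, Pygm 99.94 ± 0.0236%, Pfkm 99.84 ± 0.0228%, Pgam2 99.77 ± 0.0622% (41.5% of the stretches of its relative Pgam1 are shared with other genes) and Gys1 99.91 ± 0.0405%. Slc2a4, the insulin-responsive glucose transporter GLUT4, held 97.2 ± 0.257% of 4 transporters, with 1.67 ± 0.112% for Slc2a1. Hk2, the insulin-regulated hexokinase, held 91.96 ± 2.61%. Ldha held 90.5 ± 1.003% and the lactate exporter gene Slc16a3 91.5 ± 0.9998%, against 8.49 ± 0.983% for Slc16a1. Hexokinase differed from the rest of the pathway in level: Hk2 had 111 ± 24.2 TPM while Aldoa had 24462 ± 1748 TPM.

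Energy buffering followed the same rule. Ckm held 89.7 ± 0.376% of the creatine kinases and the mitochondrial form Ckmt2 10.2 ± 0.371%, whereas the brain form Ckb had 0.0464 ± 0.00674%. Ak1 held 96.9 ± 0.0569% of the adenylate kinases, and Ampd1, the AMP deaminase of fast muscle, 99.4 ± 0.148%. Car3, a carbonic anhydrase known mainly from slow fibres, held 97.6 ± 0.285% of its family with 1719.8 CPM in WT 1, 2028 in WT 2 and 1997 in WT 3. Its level was 1727 ± 122 TPM, above that of each slow contractile gene listed here.

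Cytochrome c oxidase showed the muscle forms of its small subunits. Cox6a2 held 97.8 ± 0.308% against 2.201 ± 0.308% for the general form Cox6a1. Cox8b held 96.1 ± 0.299% against Cox8a, and Cox7a1 76.1 ± 2.44% against 23.9 ± 2.44% for Cox7a2. Cox4i1, the general form of subunit 4, held 99.5 ± 0.0516%. The adenine nucleotide translocase of heart and muscle, Slc25a4, held 99.2 ± 0.0807%, against Slc25a5, which shares 46.6% of its stretches with other genes. Ucp3, the uncoupling protein of muscle, held 87.4 ± 3.66% with 38.5 ± 6.18 TPM. Fabp3, the muscle fatty acid binding protein, held 90.9 ± 1.51%, and the adipocyte form Fabp4 8.58 ± 1.49%.

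A muscle form also dominated in the translation machinery. Rpl3l, the striated-muscle copy of ribosomal protein L3, held 96.2 ± 0.475%, with 1011 ± 28.05 TPM against 40.05 ± 4.05 TPM for Rpl3. Eef1a2 held 88.4 ± 1.84% of elongation factor 1A, with 89.6% in WT 1, 86.3% in WT 2 and 89.3% in WT 3, against 11.6 ± 1.84% for Eef1a1. The general forms share sequence with other annotated genes over 58.4% of the 50-base stretches of Rpl3 and 59.2% of those of Eef1a1, and the part of this in the low shares was not tested. In the membrane, Scn4a held 99.94 ± 0.0299% of the muscle and heart sodium channels. Atp1b2 held 66.2 ± 5.53% of the sodium pump beta chains, with 24.1 ± 4.49% for Atp1b1. Chrne, the adult acetylcholine receptor subunit, held 99.70 ± 0.172% against the fetal subunit Chrng. Dmd, mutated in Duchenne muscular dystrophy, held 68.9 ± 1.895% and its relative Utrn 31.1 ± 1.895%, at 4.14 ± 1.53 TPM and 1.88 ± 0.739 TPM. Dmd is a long gene and had 44.9 CPM in WT 1, 44.7 in WT 2 and 23.2 in WT 3.

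Several transcription factor families were divided among their members. Myf6 held 80.6 ± 4.76% of the myogenic regulatory factors with 152 ± 4.48 TPM, followed by Myod1 with 15.2 ± 4.09%, Myog with 3.79 ± 0.5795% and Myf5 with 0.477 ± 0.143%. Myf6 and Myf5 are neighbours, 6.72 kb apart on chromosome 10. Mef2c held 47.7 ± 1.66%, Mef2d 39.3 ± 1.22% and Mef2a 12.6 ± 0.401% of the MEF2 factors. With the longest transcript Mef2c held 60.7% and Mef2d 22.1%, so the size of the Mef2d share rests on the length used. Among the PGC-1 coactivators, which drive mitochondrial genes, Pprc1 held 44.3 ± 3.63%, Ppargc1a 37.7 ± 3.23% and Ppargc1b 17.99 ± 0.406%. Ppargc1a was above Pprc1 in WT 2, so that the dominant gene of this family depended on the library.

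Calpains and the LIM proteins were also divided. Capn1 held 47.02 ± 2.401%, the muscle calpain Capn3 40.9 ± 0.983% and Capn2 12.1 ± 1.42%. With the longest transcript or with raw counts Capn1 was no longer the dominant calpain, so the order of Capn1 and Capn3 rests on the length used. Fhl1 held 60.4% in WT 1, 64.7% in WT 2 and 48.4% in WT 3 of its family, and Fhl3 most of the rest. Fhl1 was the higher in WT 1 and WT 2 and Fhl3 in WT 3.

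**Figure D4:**
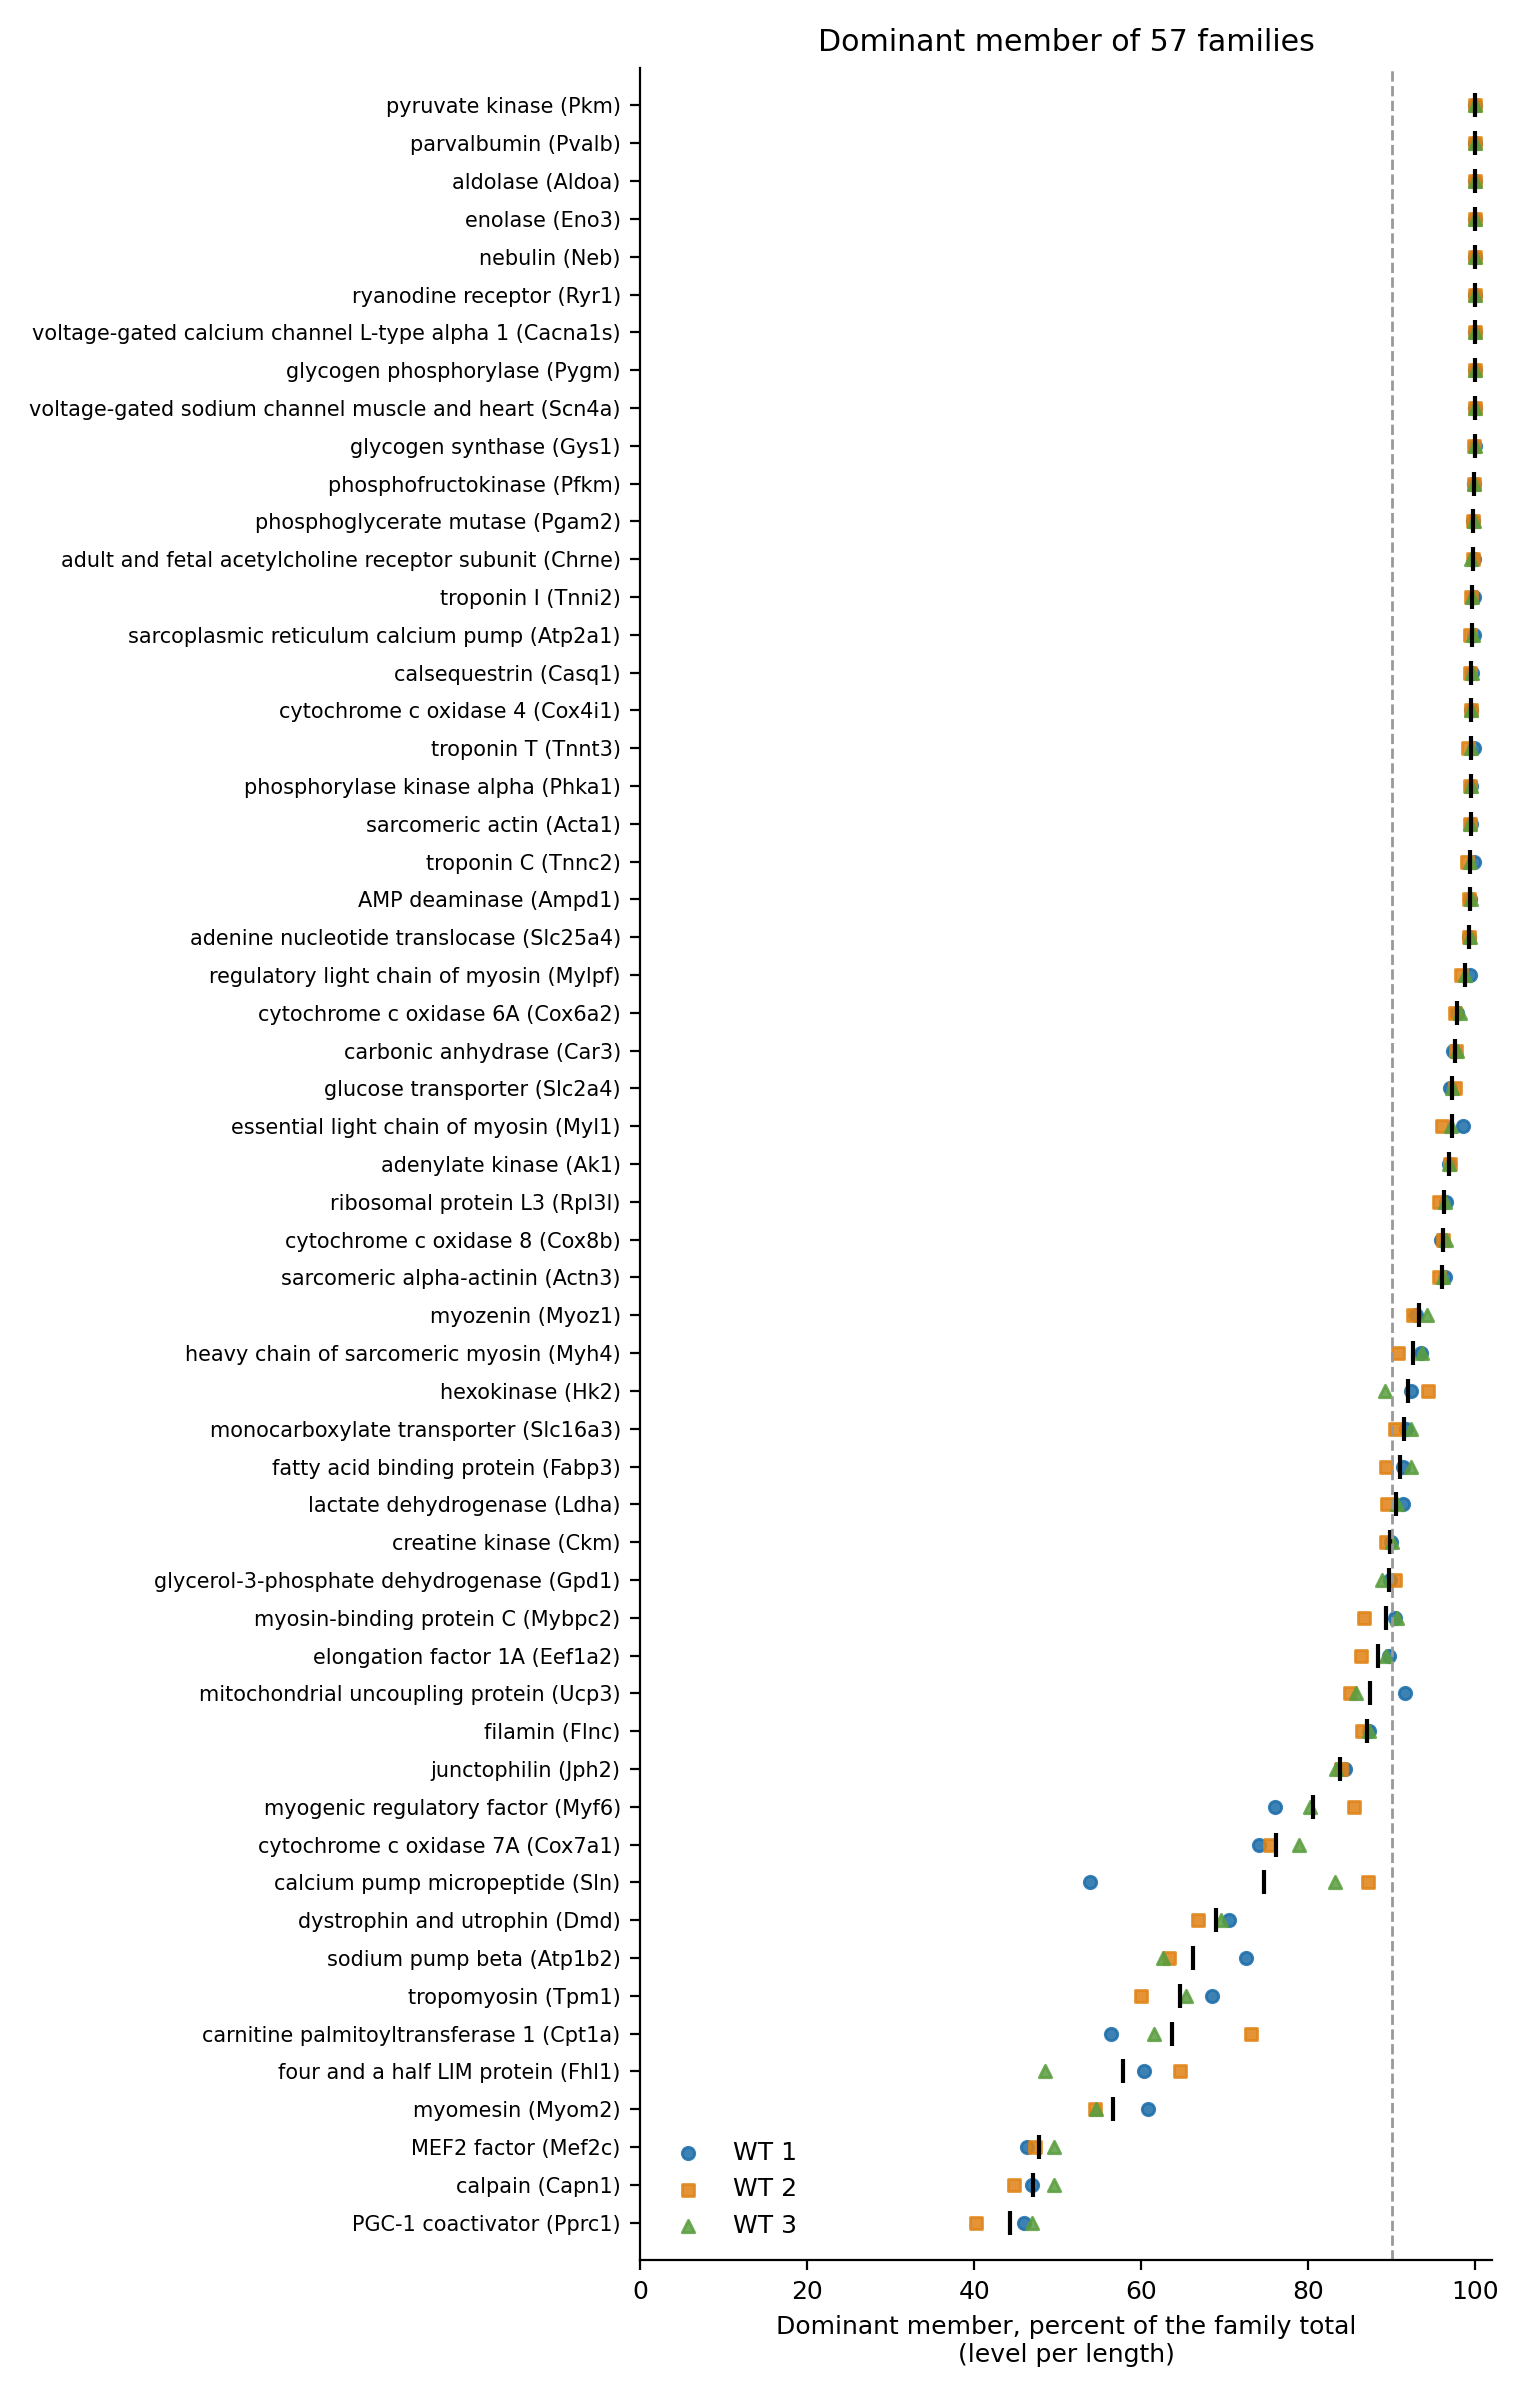
Percent of the family's TPM held by its dominant gene (x axis) for 57 of the families, 1 symbol per library and the mean as a black tick, with the dominant gene in brackets and a dashed line at 90%. The upper 38 families lie at 90% or more by their mean, and 3 lie under 50%.

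A few genes that nearly every cell uses had almost no counts. Among 322 members of the classes for glycolysis, oxidative phosphorylation, fatty acid use, ribosome and translation factors, 16 averaged under 1 CPM and 8 of them had 0 counts. Named here, after their values were seen, are the 6 of the 16 that share at least 30% of their 50-base stretches with another annotated gene. Rpl26, a protein of the large ribosomal subunit, and Ndufs5, a subunit of complex I, were listed at 0 in all 3 libraries, as were both copies of Eif3j, Eif3j1 and Eif3j2. Eno1 had 1, 2 and 0 counts. Cpt1b, the muscle form of the enzyme that admits fatty acids to mitochondria, had 12, 3 and 3 counts, so that the share of 63.7 ± 8.56% given to Cpt1a describes a family summing to 2.19 TPM. The shared part was 47.4% of the stretches of Rpl26, 31.1% of Ndufs5, 91.8% of Eif3j2, 39.8% of Eif3j1, 72.2% of Eno1 and 93.0% of Cpt1b. For Cpt1b, exons of a predicted gene on the same strand, which the counts do not list, overlap 81.4% of its exon sequence. The other 10 of the 16 shared less than 30% of their stretches. Among these were the ribosomal protein genes Rpl30, with 10, 7 and 7 counts and 10.2% shared, and Rps27, with 16, 9 and 16 counts and 27.6% shared, which every cell is known to use. Others, such as Aldoc, are known from other tissues.

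Globin genes were also without counts. Hba-a1, Hba-a2, Hbb-bs and Hbb-bt were listed at 0, with 67.5%, 86.9%, 65.8% and 58.3% of their stretches shared, while Alas2, the haem synthesis enzyme of red cells, had 4.68 CPM in WT 1, 4.25 in WT 2 and 6.38 in WT 3. Of the 322 members, genes under 1 CPM numbered 8 of the 212 with under 10% shared stretches, 5 of the 84 with 10 to 50% and 3 of the 26 with 50% or more. The median level was 166, 372 and 535 TPM in the same order, so that genes near 0 were relatively more frequent, and the median higher, where more was shared. Whether the counting left out such genes was not tested, and a value of 0 for them is not a measured absence.

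**Figure D5:**
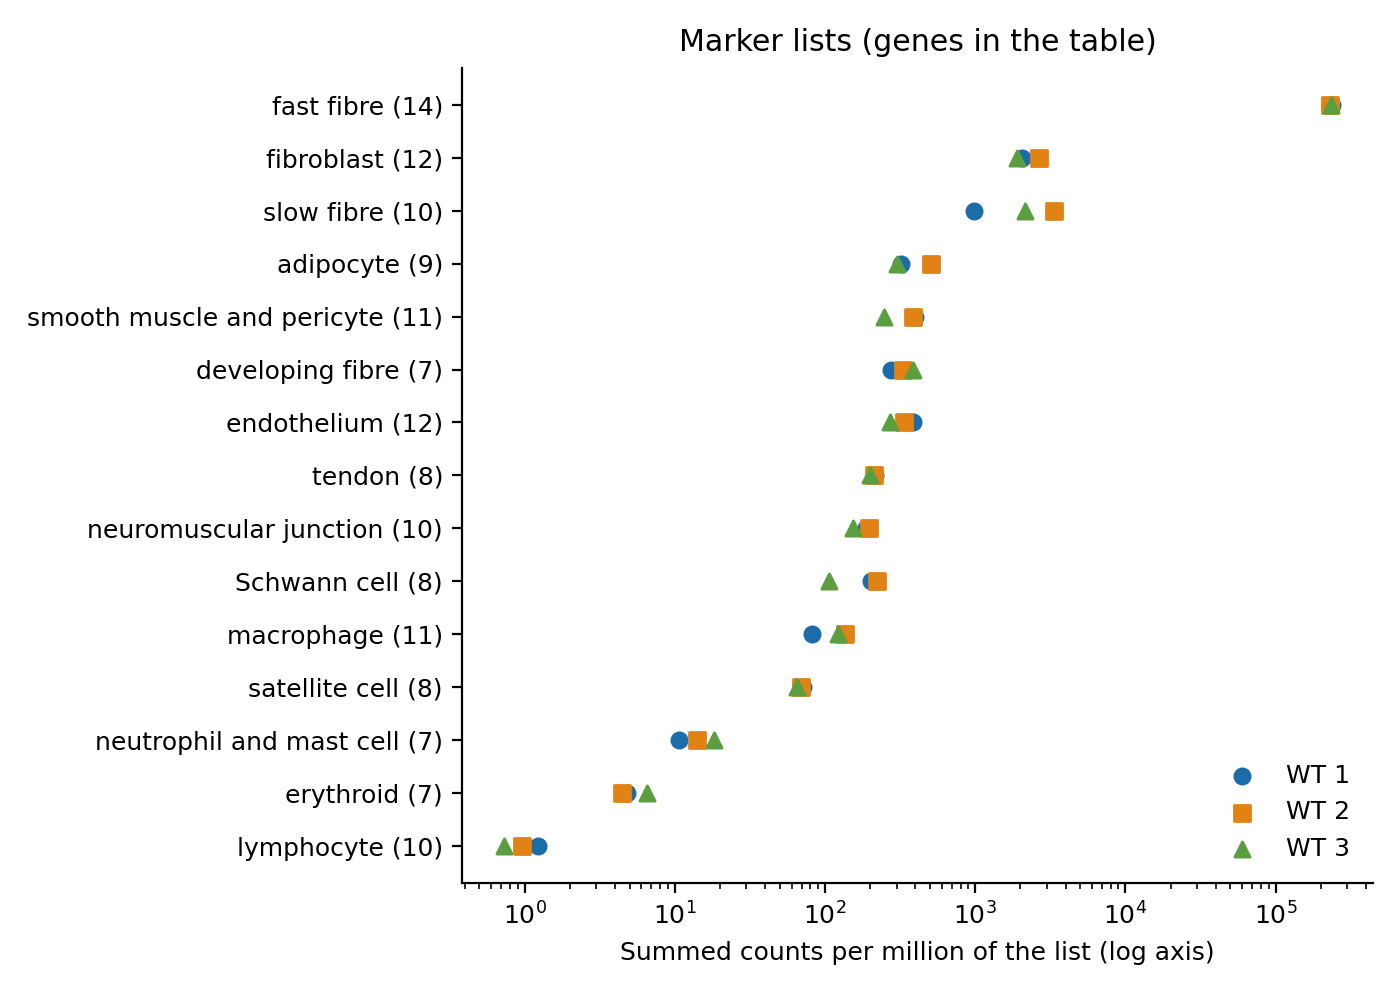
Summed CPM (log axis) of 15 marker lists, 1 symbol per library, with the number of genes in the table in brackets. Fast fibre markers range from 230215 to 236221 CPM, the slow fibre sum ranges from 985 to 3372 CPM, and lymphocyte markers lie near 1 CPM.

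Cells other than muscle fibres were read from marker lists, each summed over its members. Fibroblast markers were the highest of them with 2052 CPM in WT 1, 2668 in WT 2 and 1898 in WT 3, but Gsn, the actin-severing protein gelsolin, was 53.5% of the sum. Gsn is known from many cell types, muscle included. The more specific members Dcn, a matrix proteoglycan, and Pdgfra, a receptor of mesenchymal cells, had 224, 292 and 199 CPM and 14.6, 18.5 and 9.47 CPM in WT 1, WT 2 and WT 3. Collagen I and III genes Col1a2, Col3a1 and Col1a1 had 184 ± 23.8 CPM, 176 ± 18.97 CPM and 139 ± 24.9 CPM. All 12 fibroblast markers reached 1 CPM in each library. Of the 12, 9 were highest in WT 2, but the share of all genes highest in that library was not counted.

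Vessel markers were of similar size to each other. The 12 endothelial genes summed to 384 CPM in WT 1, 337 in WT 2 and 272 in WT 3, led by Cdh5, the cadherin of endothelial junctions, and Pecam1, with 51.6 ± 12.2 CPM and 51.4 ± 5.05 CPM. Smooth muscle and pericyte markers summed to 396 CPM in WT 1, 388 in WT 2 and 246 in WT 3. Abcc9, a subunit of ATP-sensitive potassium channels that muscle fibres also use, was 36.1% of that sum, and the contractile smooth muscle genes Acta2 and Myh11 had 49.7 ± 7.68 CPM and 27.4 ± 11.4 CPM. Of the endothelial genes 9 of 12 and of the smooth muscle and pericyte genes 9 of 11 were lowest in WT 3, against 52.7% of all genes of at least 10 CPM.

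Nerve and tendon were also present. All 8 Schwann cell markers were lowest in WT 3, against 52.7% of all genes of at least 10 CPM. Their sum was 204 CPM in WT 1, 223 in WT 2 and 107 in WT 3. Sox10, the lineage factor of these cells, had 3.38 CPM in WT 1, 3.14 in WT 2 and 1.16 in WT 3. Tendon markers summed to 215 CPM in WT 1, 211 in WT 2 and 199 in WT 3, of which the tendon proteoglycan gene Fmod was 45.1%. Scx, the tendon lineage factor, had 6.56, 8.04 and 6.77 CPM and Tnmd, tenomodulin, 3.77, 3.64 and 6.17 CPM. The tendon sum varied by 1.08-fold, less than the 2.10-fold of the Schwann cell sum.

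Fat markers differed more between libraries. The adipocyte list summed to 322 CPM in WT 1, 511 in WT 2 and 299.7 in WT 3, and all 9 members were highest in WT 2. Adipoq, the hormone adiponectin, had 16.6 CPM in WT 1, 32.4 in WT 2 and 11.5 in WT 3, and Plin1, which coats lipid droplets, had 9.04 CPM in WT 1, 17.9 in WT 2 and 4.63 in WT 3. Fabp4 varied least of those named, with 150.0, 180.3 and 176 CPM. WT 2 was also the highest library for the slow fibre, fibroblast, macrophage, Schwann cell and neuromuscular junction sums. How many of all genes were highest in WT 2 was not counted. The part of any list in the difference of another was not tested.

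Resident immune and stem cells were rarer. Macrophage markers (11 in the table) summed to 82.03 CPM in WT 1, 137 in WT 2 and 122 in WT 3, led by Lyz2 with 31.03 ± 5.42 CPM and the complement genes C1qa, C1qb and C1qc with 15.1 to 17.2 CPM on average. Csf1r, the receptor that macrophages depend on, had 12.2, 21.9 and 13.3 CPM. Mast cell proteases Mcpt4 and Cma1 had 6.39 ± 2.31 CPM and 3.505 ± 1.17 CPM, while the neutrophil genes S100a9 and S100a8 had 0.491 ± 0.482 CPM and 0.191 ± 0.122 CPM. None of 10 lymphocyte markers reached 1 CPM in all libraries, and their sum was 1.24 CPM in WT 1, 0.961 in WT 2 and 0.728 in WT 3. The lymphocyte members had at most 0.304 CPM and at most 9 counts in any library.

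Satellite cells, the stem cells of muscle, were seen through few counts. Pax7, their defining factor, had 1.88 CPM in WT 1, 1.37 in WT 2 and 0.557 in WT 3, and Myf5 had 0.971 CPM in WT 1, 0.607 in WT 2 and 0.5998 in WT 3. Calcr, a marker of quiescent satellite cells, had 0.324, 0.202 and 0.129 CPM. The list summed to 70.9 CPM in WT 1, 69.3 in WT 2 and 65.6 in WT 3, but 41.7% of that was Spry1, which other cells express too. Pax7, Myf5 and Calcr were highest in WT 1, while 3 of the 8 members of the list were highest in WT 2. The share of all genes highest in WT 1 or in WT 2 was not counted.

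Genes of the neuromuscular junction, which the few nuclei beneath the nerve ending express strongly, were low but present. All 10 reached 1 CPM in each library and summed to 187 CPM in WT 1, 196 in WT 2 and 154 in WT 3. Rapsn, which clusters acetylcholine receptors, had 42.8 ± 3.38 CPM, the esterase gene Ache 37.7 ± 9.100 CPM, and Musk, the receptor kinase that organises the junction, 7.92 ± 2.57 CPM. The developing fibre list summed to 277 CPM in WT 1, 332 in WT 2 and 385 in WT 3, of which Actc1 was 91.6%. Without it the list summed to 27.7 CPM, and the fetal receptor subunit Chrng had 0.0589, 0.101 and 0.171 CPM.

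Most genes varied little among the 3 libraries. Over 4558 genes of at least 20 CPM the median ratio of the highest to the lowest library was 1.22, and 146 genes (3.20%) exceeded 2-fold. Of these, 101 were lowest in WT 3, 38 in WT 1 and 7 in WT 2. Among all genes of at least 10 CPM, 52.7% were lowest in WT 3. The part of gene length in the 101 was not tested. The gene with the largest ratio was Arrdc2, an arrestin-domain gene, with 9.83 CPM in WT 1, 168 in WT 2 and 23.9 in WT 3. Fasn, fatty acid synthase, was second with 43.00 CPM in WT 1, 136 in WT 2 and 11.6 in WT 3. Both were highest in WT 2.

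Several of the 10 most variable genes are known to respond quickly to hormones, time of day, feeding or activity. Per1, a clock gene that glucocorticoids also induce, had 12.04 CPM in WT 1, 91.5 in WT 2 and 32.00 in WT 3. Ddit4, an inhibitor of mTORC1 signalling, had 8.27 CPM in WT 1, 48.6 in WT 2 and 6.38 in WT 3, and Cebpd, a transcription factor of the acute response, had 8.98 CPM in WT 1, 43.3 in WT 2 and 11.4 in WT 3. These 3, with Arrdc2 and the mitochondrial carrier gene Slc25a25 (12.2, 68.5 and 19.3 CPM), were all highest in WT 2. Fos, an immediate early gene, was highest in WT 1 instead, with 53.6 CPM in WT 1, 5.82 in WT 2 and 6.38 in WT 3. Chac1, a target of the integrated stress response, had 12.98 CPM in WT 1, 95.6 in WT 2 and 95.7 in WT 3, low in WT 1 alone. The other two of the 10 were the pseudogene Hmga2-ps1, with 10.7, 17.8 and 53.7 CPM, and the slow heavy chain Myh7. The labels used here give neither time of day nor feeding state.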

How the data were processed

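RNA was extracted from whole gastrocnemius with a column kit for fibrous tissue and made into libraries with TruSeq RNA kit version 2, which does not mark strand (per the labels' protocols). What the authors deposited are raw counts by gene symbol, as whole numbers. Build mm10 and the tools featureCounts 1.4.6, Subread, Bowtie2 2.2.6 and TopHat2 2.0.14 are credited to the submitters' processing notes. Not given in the sources used here are the annotation, filters and the handling of reads that fit several genes. Mitochondrially encoded genes were not analysed here, and a few genes that the naming rule picks are not reported here.

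From the counts of the 3 libraries, CPM was computed on library totals and TPM on merged exon lengths of GENCODE M21, with pandas 2.3.3 and numpy 2.4.6 in Python 3.11.15. Of the symbols, 94.5% matched by name, 3.79% by an older name in RefSeq and 1.66%, with 0.359 to 0.501% of counts, had no length. Alternatives were the longest transcript, raw counts, TMM scaling (edgeR 4.0.16 in R 4.3.3), other detection thresholds, leaving out the top gene or list member, and leaving out each library. The arithmetic of the shares was checked on counts simulated from known levels with the same lengths. Of 59 families, 1 with few counts missed the first limit of 3 percentage points (error 5.08 points, 2.15 binomial standard errors). The limit was then changed to 4 standard errors, which no family exceeded. The simulated counts held no reads that fit several genes and no wrong lengths, so the check says nothing of either. The description has no comparison between groups and no test.

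The members, gene lists and families were chosen with earlier results of these data known. Named are the 30 genes of highest mean CPM and 10 of highest TPM; in each family the dominant member, others at 1% or more and the textbook alternative; up to 4 members of each list by level and up to 4 at 0; the 5 highest non-coding genes; the 10 genes of at least 20 CPM with the highest ratio between libraries; and Bub1b. Genes named outside this rule are those given for a role beside a list or chosen after their values were seen, as with the genes at or near 0 counts. Defining markers such as Pax7, Adipoq and Sox10 were named beyond the first 4 of their lists for that role. Values given for a count floor cover counting error only.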

Additional observations from a re-analysis of the deposited data

How the results depend on the processing

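Of 179 alternatives computed for 35 results, 145 stayed close to the value given and 34 did not, where close means within 1 SD between libraries for levels and shares and within 1.5 times for counts of genes or families. The 15 marker sums under TMM scaling were among the 145. So were the 105 values that left out a library, but a mean of 3 moves by less than 1 SD when 1 is left out, so this says nothing of stability. Of those 105, the Myh7 share moved by over 1.5 times, from 0.426% to 0.225% without WT 2. No paired analysis was possible because the description covers a single genotype and runs no test.

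The scale mattered most for shares of the whole. The 10 highest genes held 39.9% per length with merged exons, 39.1% with the longest transcript and 28.5% of counts without the most abundant gene. Genes that held 50% numbered 57.3 on average, 20.7 and 23.0 with the 2 lengths and 76.0 without the most abundant gene. Per length, the classes held 36.8% (contractile), 8.85% (calcium), 8.37% (glycolysis and glycogen), 2.77% (high-energy phosphate), 5.67% (oxidative phosphorylation), 1.13% (fatty acid and citrate cycle), 3.77% (ribosome), 1.03% (translation factors), 0.102% (collagen and matrix) and 0.404% (oxygen carriers). Without the most abundant gene the contractile class held 25.99%, calcium 8.07%, glycolysis 9.64%, high-energy phosphate 3.11%, fatty acid and citrate cycle 1.62% and translation factors 1.28%. With raw counts the slow share of troponin I was 0.839%. Of the family shares given, those of Fabp4 (33.3%), Tpm2 (19.3%), Ckmt2 (5.49%) and Myoz3 (8.23%) moved by over 1.5 times with raw counts. So did those of Mef2d (20.1%), Ppargc1b (11.99%), Myom3 (1.21%) and Myf5 (0.725%). Among the slow-type genes, the family shares of Myl2 (2.21%), Myoz2 (3.42%), Atp2a2 (0.669%) and Ldhb (4.76%) also did. With the longest transcript Mef2d, Myom3 (1.16%) and Myl2 (1.91%) moved by over 1.5 times.

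Of the 15 marker sums, 12 moved without their top member, to 182348 CPM for fast fibre, 27.7 for developing fibre, 39.98 for satellite cell, 136 for neuromuscular junction, 1025 for fibroblast, 114.5 for tendon, 219 for smooth muscle and pericyte, 82.5 for macrophage, 7.94 for neutrophil and mast cell, 0.164 for erythroid, 108 for Schwann cell and 209 CPM for adipocyte markers. At these depths, genes under 1 CPM, such as the lymphocyte markers, rest on a few counts.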

Other observations

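Factors that muscle secretes were mostly low. Of 19 in the table, 14 reached 1 CPM in each library. Beside the matrix proteins Dcn and Sparc (210.3 ± 17.8 CPM), the highest were the vessel growth factor genes Vegfb, with 137 ± 3.07 CPM, and Vegfa, with 60.8 ± 19.1 CPM, and Fndc5, the precursor of irisin, with 89.7 ± 9.59 CPM. Mstn, the inhibitor of muscle growth myostatin, had 40.3 CPM in WT 1, 41.3 in WT 2 and 30.97 in WT 3, and Ostn, osteocrin, had 55.2 CPM in WT 1, 25.4 in WT 2 and 51.2 in WT 3. Ostn was lowest in WT 2. Il6 and Fgf21 had 0, 0.0506 and 0.0428 CPM and 0.0294, 0 and 0 CPM in WT 1, WT 2 and WT 3, at most a few counts.

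Of 28 hormone and nuclear receptor genes, 24 reached 1 CPM in each library. Adipor1, a receptor of adiponectin, was the highest with 389 ± 10.6 CPM and varied little. Rxra, a partner of many nuclear receptors, had 213 ± 24.9 CPM. Nr1d1, a repressor of the clock, had 279 CPM in WT 1, 157 in WT 2 and 152 in WT 3, highest in WT 1. Nr4a1, an activity-induced orphan receptor, had 140.2 CPM in WT 1, 213 in WT 2 and 161 in WT 3.

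Protein-coding genes held 99.2% of counts by their annotated class. Among symbols with a non-coding class in GENCODE M21, which leaves out the ribosomal RNA precursor Rn45s (3666 ± 785 CPM), the 5 highest by CPM were Neat1 (497, 524 and 328 CPM in WT 1, WT 2 and WT 3), the scaffold RNA of paraspeckles, 2900097C17Rik (353 ± 18.4 CPM), the imprinted H19 (318 ± 45.3 CPM), Prr33 (273 ± 23.3 CPM), which GENCODE M21 lists as a lincRNA, and 2310065F04Rik (202 ± 15.3 CPM). Neat1 was lowest in WT 3 and H19 highest there.

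Neighbouring troponin genes differed in level. Tnni2 and Tnnt3 stand 54.4 kb apart on chromosome 7 with 27274 ± 3443 TPM and 54825 ± 1980 TPM. Tnni3, the cardiac troponin I, and Tnnt1 stand 1.92 kb apart on the same chromosome with 0.144 ± 0.0972 TPM and 289 ± 178 TPM. On chromosome 1, Tnni1 and the cardiac gene Tnnt2 stand 25.4 kb apart with 97.2 ± 57.9 TPM and 1.47 ± 0.331 TPM.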
